A study of Mus musculus with 12 samples.

Results

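Long non-coding RNA (lncRNA) genes that do not come from the X or Y chromosome were described across immunoprecipitates of the 3 YTHDF proteins from mouse hippocampal neurons. Of 862 lncRNA genes in the authors' table of expressed genes, 31 on the sex chromosomes, 13 whose names start with Snhg and 9 named genes (Bc1, Gas5, Kcnq1ot1, Malat1, Meg3, Miat, Mirg, Neat1 and Rian) were set aside. The remaining 809 genes were all found among the 55573 genes of the count table, and all 809 passed the filter on low counts that left 17126 genes for testing. The neurons came from newborn C57BL/6 mice and were cultured for 14 days. RNA bound to endogenous YTHDF1, YTHDF2 or YTHDF3 was recovered with an antibody against each protein (RNA immunoprecipitation, RIP) and sequenced beside the input lysate, with 3 replicates in each of the 4 groups. By the study's methods, each replicate was a pool of culture wells whose lysate was split over the 3 antibodies with 1 shared input, so the 3 comparisons against input share their control libraries. A control antibody is not part of the data used here, so what the beads or an antibody retain without regard to the reader cannot be told apart from binding. Below, values "with YTHDF1" are those of the YTHDF1 RIP, and likewise for the other readers.

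YTHDF proteins are cytoplasmic readers of N6-methyladenosine (m6A), a methyl mark placed on adenosines of messenger RNAs and of many lncRNAs, most often within a GGAC core. An lncRNA is a long transcript with no recognised protein product. Some work in the nucleus at the gene they come from, some host small RNAs in their introns or exons, and some are exported and act in the cytoplasm, where the readers are found.

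Total counts were 9092494 to 13833973 in the input libraries, 10037804 to 38909592 with YTHDF1, 6020072 to 9259893 with YTHDF2 and 21395271 to 22400602 with YTHDF3. The summed input level of 9 neuronal markers was 492 to 702 CPM (counts scaled to a common library total, without TMM factors here and with them for the lncRNA genes) per kilobase, against 0.374 to 1.00 for 4 microglial markers. The 4 astrocyte markers summed to 42.3, 185 and 465 CPM per kilobase in input libraries 1, 2 and 3, and to 35.6, 150 and 355 in the libraries of the same numbers with YTHDF3. In libraries 1, 2 and 3 they summed to 36.2, 150 and 84.6 with YTHDF1 and to 103, 278 and 174 with YTHDF2. The sums of these RIPs thus did not follow the order of the input libraries. In such bulk libraries, fewer cells of a type and less RNA per cell cannot be told apart, and the part of the astrocyte share in the results was not tested.

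The sequences below show the GGAC core in lncRNAs on which the results turn, each as the 120 bases within 1 exon that held most copies. The longest annotated transcript of each gene was read from GENCODE (GRCm38), 5′ to 3′ on the transcript strand only, and the capitals mark GGAC followed by A, C or T.
Norad, chr2:156391113-156391232, minus strand: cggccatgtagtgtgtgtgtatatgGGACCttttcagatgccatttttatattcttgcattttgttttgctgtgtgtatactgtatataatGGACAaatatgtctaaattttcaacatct
Peg13, chr15:72806888-72807007, minus strand: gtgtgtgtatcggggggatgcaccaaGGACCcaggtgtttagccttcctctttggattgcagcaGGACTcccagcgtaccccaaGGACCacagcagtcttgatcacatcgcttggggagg
Oip5os1, chr2:119600509-119600628, plus strand: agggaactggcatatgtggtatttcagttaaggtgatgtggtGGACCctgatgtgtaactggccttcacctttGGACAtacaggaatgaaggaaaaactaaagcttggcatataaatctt
A830082K12Rik, chr13:78276564-78276683, plus strand: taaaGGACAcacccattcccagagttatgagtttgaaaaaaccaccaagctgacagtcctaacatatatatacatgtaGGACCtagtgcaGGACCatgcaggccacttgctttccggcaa
Gm21781, chr10:4393855-4393974, plus strand: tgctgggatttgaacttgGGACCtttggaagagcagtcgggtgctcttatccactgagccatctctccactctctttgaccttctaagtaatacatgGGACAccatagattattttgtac
Mir100hg, chr9:41589851-41589970, plus strand: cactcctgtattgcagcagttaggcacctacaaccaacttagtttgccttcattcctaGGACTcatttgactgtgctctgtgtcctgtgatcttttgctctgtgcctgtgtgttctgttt
Gm10076, chr14:105681952-105682071, plus strand: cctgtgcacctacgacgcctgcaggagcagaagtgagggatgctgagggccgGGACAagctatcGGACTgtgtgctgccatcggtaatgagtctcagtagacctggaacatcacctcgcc
These 7 carry the main patterns. Norad rose most with YTHDF3 and Peg13 in all 3 RIPs, Oip5os1 and Gm21781 moved in opposite directions between RIPs, A830082K12Rik rose and Mir100hg fell with YTHDF1, and Gm10076 fell in all 3. At least 1 of these words was present in the longest transcript of 96.7% of the 808 lncRNA genes with a transcript and of 95.96% of all tested genes, and the word ending in T in 80.1% and 85.4%. Norad held 11 such words, none of them ending in T. Gm10076, which fell in all 3 RIPs, held 10.4 words per kilobase, above 99.3% of the lncRNA genes. Mir100hg held 2 in its longest transcript, or 0.47 per kilobase. A match to these letters is a description of the sequence and not a methylated site.

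The lncRNA genes were mostly rare transcripts. Their mean normalised count over the 12 libraries had a median of 28.0, against 284 for the 13508 tested protein-coding genes, and 136 genes (16.8%) reached a mean of 100. Their median merged exon length was 2406 bases, against 4637 for protein-coding genes, with a median of 3 exonic blocks against 10. In the input, the highest levels per kilobase were those of Rmrp, the RNA of ribonuclease MRP (1793 ± 268 CPM per kilobase, SD, n = 3), and of Gm10076 (263 ± 74.4). Norad, a cytoplasmic lncRNA that binds Pumilio proteins, followed at 147 ± 35.6, then Gm28037 at 123 ± 37.98 and Gm38182 at 96.5 ± 15.8. The last 2 share exons on the same strand with Rpl24 and Zbtb11 and with the protocadherin gamma genes, and featureCounts was run so that reads over several genes count for each, so their levels cannot be told apart from those genes.

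Together the 809 genes took 0.548% to 0.607% of all counts in the input, 0.581% to 0.679% with YTHDF1, 0.710% to 0.764% with YTHDF2 and 0.986% to 1.09% with YTHDF3. Norad and its near copy Gm7292 alone took 0.345% to 0.435% in the YTHDF3 RIP, against 0.0766% to 0.120% in the input. Without both, the share was 0.472% to 0.487% in the input, 0.515% to 0.552% with YTHDF1, 0.547% to 0.606% with YTHDF2 and 0.640% to 0.662% with YTHDF3. The other counts moved as well. Protein-coding genes took 62.2% to 64.7% of counts in the input, 89.6% to 95.99% with YTHDF1 and 94.5% to 95.3% with YTHDF3. Set against protein-coding counts, lncRNA genes other than Norad and Gm7292 gave 7.51 to 7.83 counts per 1000 in the input, 5.53 to 6.16 with YTHDF1, 7.39 to 8.50 with YTHDF2 and 6.72 to 7.01 with YTHDF3. On that scale the libraries of the YTHDF1 and YTHDF3 RIP lay below every input library, whereas their share of all counts without Norad and Gm7292 lay above it. With 3 libraries against 3, an exact permutation test of such a share cannot give a p below 0.1.

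Against input, lncRNA genes were enriched and depleted in every RIP. In the YTHDF1 RIP, 196 of 809 (24.2%) were enriched and 142 (17.6%) depleted, by a log2 fold change of at least 0.32 and an adjusted p of at most 0.05 in edgeR's quasi-likelihood test over all genes. Of all 17126 tested genes, 27.2% were enriched and 25.8% depleted. Replicate numbers may mark shared lysates. With the replicate number as a block the counts were 181 and 135 when all 12 libraries were fitted, and 87 and 69 when YTHDF1 RIP and input were fitted alone. Of all tested genes, 26.6% and 25.6% were called in the first of these fits and 14.0% and 17.7% in the second. Deviations of YTHDF1 RIP and input libraries of the same number correlated at only 0.09, −0.27 and −0.32. For the YTHDF2 RIP they correlated at 0.18, −0.32 and −0.31. In both RIPs the block may therefore not pair libraries of the same lysate. With scaling by library size alone, which lowered the median of all genes from 0.02 to −0.38 on the log2 scale, the split was 121 enriched and 211 depleted. Of all tested genes 18.0% and 36.3% were then called. With scaling on protein-coding genes the split was 145 and 179, and 21.5% and 32.2% of all tested genes were called. Which direction held more genes thus depended on the scaling.

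In the YTHDF2 RIP, 93 lncRNA genes (11.5%) were enriched and 61 (7.54%) depleted, where 15.7% and 19.0% of all tested genes were. Scaling on protein-coding genes gave 68 and 69, with 12.7% and 22.0% of all tested genes called. Without any 1 of input 1, 2 or 3 or YTHDF2 RIP 3, 61, 52, 50 and 57 genes were enriched. Depleted genes numbered 37, 39 and 40 without input 1, input 2 or YTHDF2 RIP 1, and 35 with the block in these groups alone. With that block 16.4% of all tested genes were depleted. In the YTHDF3 RIP, 83 (10.3%) were enriched and 83 (10.3%) depleted, against 16.4% and 23.0% of all tested genes. Scaling by library size alone gave 163 and 44, with 28.2% and 17.7% of all tested genes called. The YTHDF3 RIP and input libraries of the same number deviated together, and the block in these groups alone gave 260 enriched and 152 depleted, against 77 and 73 over all 12 libraries. Of all tested genes, 36.3% and 32.2% were called with the block in these groups alone. Over all 12 libraries 16.2% and 22.4% were. Without input 2, input 3, YTHDF3 RIP 1 or YTHDF3 RIP 2, 44, 50, 55 and 50 were enriched. Without input 1, input 2, YTHDF3 RIP 2 or YTHDF3 RIP 3, 55, 53, 37 and 49 were depleted.

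**Figure D1:**
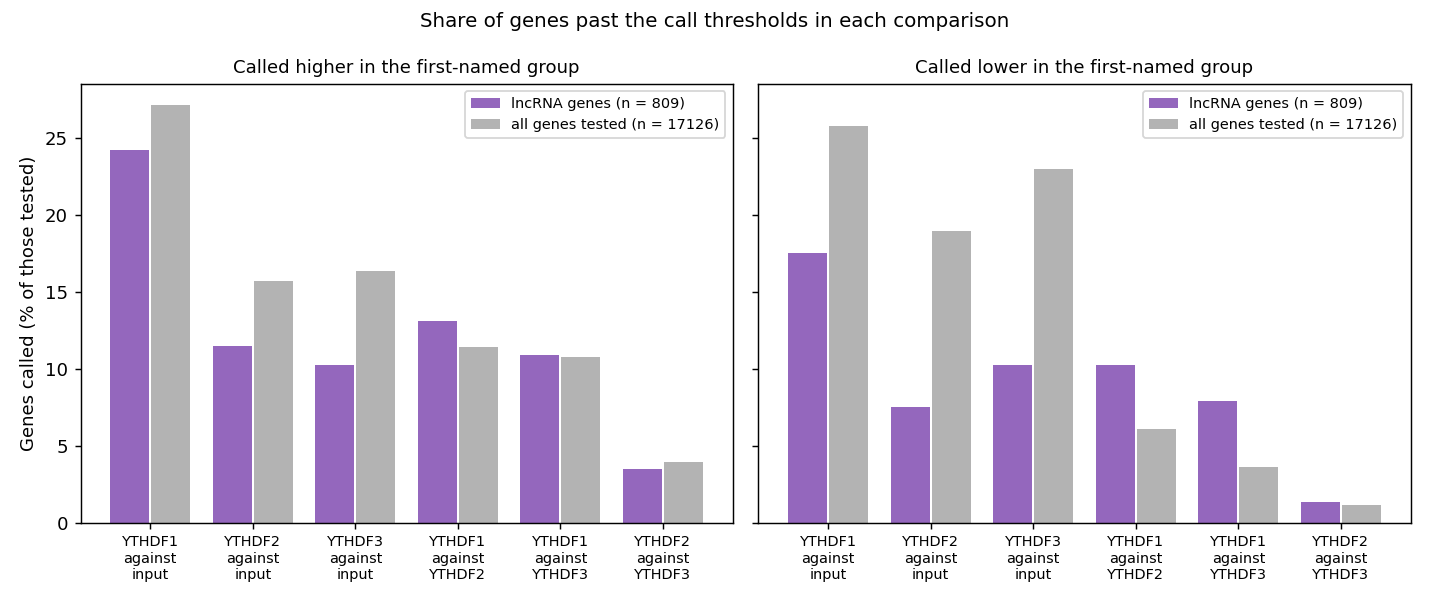
Bars give the percent of genes called higher (left) or lower (right) in the first-named group of each comparison, for the 809 lncRNA genes and for all 17126 tested genes. Against input the lncRNA bars were below those of all genes, in the depleted direction most of all (17.6% against 25.8% for the YTHDF1 RIP). The bars are not matched for level. At a mean of 30 to 100, 33.3% of lncRNA genes were enriched in the YTHDF1 RIP, against 15.5% of all tested genes. At a mean of 100 or more the shares were 35.3% and 34.6%. These means include the RIP libraries, so enrichment itself could place a gene at its level.

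The mean normalised count was taken over all 12 libraries, RIPs included, so a gene's enrichment itself raised its mean. The lncRNA genes are set only beside all tested genes of the same level. The median of this mean was 28.0 for lncRNA genes and 197 for all tested genes, so such a match need not remove the effect. Among genes with a mean of 100 or more, 35.3% of the 136 lncRNA genes were enriched in the YTHDF1 RIP and 14.7% depleted, against 34.6% and 24.9% of all 10906 tested genes at that level. In the YTHDF3 RIP, 21.3% were enriched and 10.3% depleted, against 23.3% and 22.1%. In the YTHDF2 RIP, 26.5% were enriched and 8.1% depleted, against 20.7% and 20.1%. At a mean of 30 to 100, 33.3% of 252 lncRNA genes were enriched and 20.6% depleted in the YTHDF1 RIP. Of all 3455 tested genes at that level, 15.5% and 32.1% were. In the YTHDF2 RIP the shares at that level were 15.5% and 8.7%, against 8.0% and 21.7% of all tested genes. At a mean under 30, where 52.0% of the lncRNA genes lay, 15.2% were enriched and 16.6% depleted in the YTHDF1 RIP, against 12.7% and 21.2% of all 2765 tested genes at that level. In the YTHDF2 RIP fewer lncRNA genes than all tested genes were enriched there (4.28% against 5.64%), and 6.65% against 10.96% were depleted. The YTHDF3 RIP is described only at the highest level. The median log2 fold change of the 809 genes was 0.14, 0.18 and 0.18 in the YTHDF1, YTHDF2 and YTHDF3 RIP, against 0.02, 0.02 and 0.05 over all tested genes.

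Transcript length went with the changes of protein-coding genes far more than with those of lncRNA genes. Protein-coding genes with under 1000 exonic bases had a median log2 fold change of −1.45, −1.02 and −2.13 in the YTHDF1, YTHDF2 and YTHDF3 RIP, and those of 3000 bases or more had 0.37, 0.23 and 0.32. The 155 lncRNA genes under 1000 bases had medians of 0.13, 0.22 and 0.13, and the 306 of 3000 bases or more had 0.14, 0.28 and 0.24. Across genes, Spearman's rho of the log2 fold change with length was 0.49, 0.36 and 0.54 for protein-coding genes and 0.08, 0.06 and 0.06 for lncRNA genes. At a mean count of 100 or more it was 0.50, 0.36 and 0.55 over 9949 protein-coding genes and −0.0031, 0.03 and 0.12 over 136 lncRNA genes. At a mean of 10 to 30 it was 0.38, 0.31 and 0.40 over 1257 protein-coding genes and 0.12, 0.00015 and −0.016 over 421 lncRNA genes. The 440 lncRNA genes that share no exon and no 50-base word with another gene gave 0.10, 0.10 and 0.09. These are descriptions across genes, which share libraries and are not independent replicates, and the levels again include the RIP libraries.

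**Figure D2:**
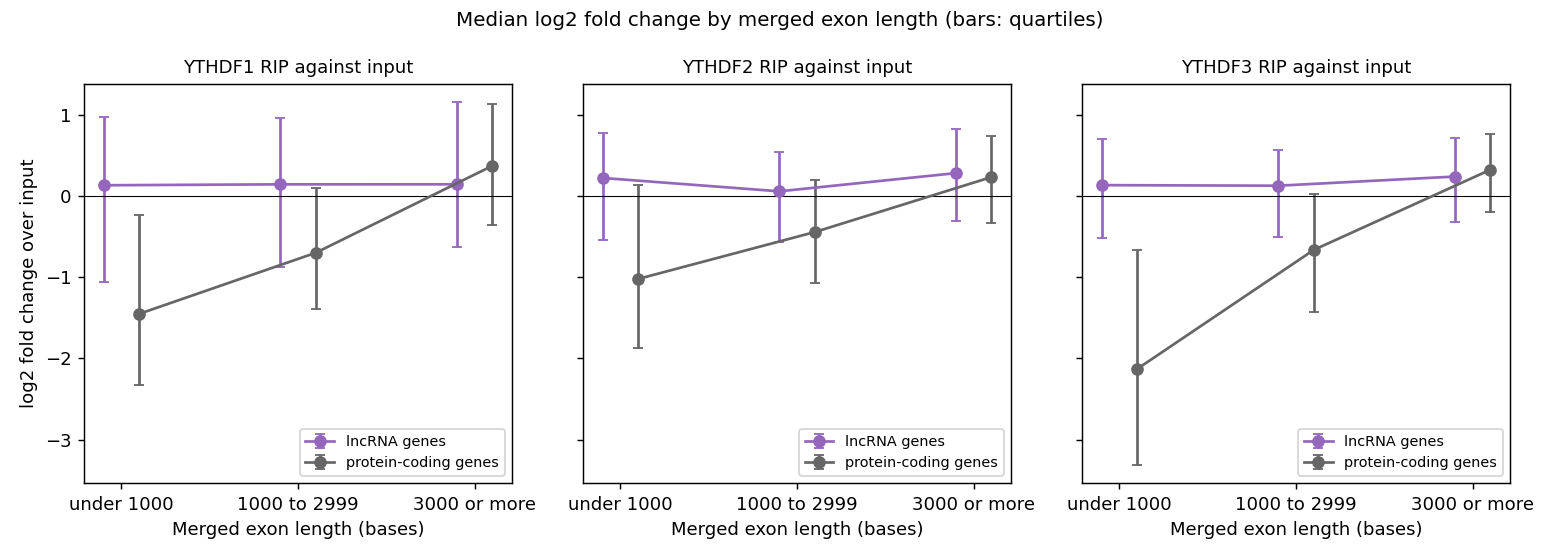
Points give the median log2 fold change over input and bars the quartiles, for lncRNA and protein-coding genes in 3 classes of merged exon length in bases. Protein-coding medians climbed from −2.13 to 0.32 in the YTHDF3 RIP, whereas lncRNA medians stayed between 0.13 and 0.24.

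The 151 lncRNA genes of 1 block had medians of 0.14, 0.19 and 0.04 in the 3 RIPs, the 329 of 2 to 3 blocks 0.21, 0.15 and 0.23, and the 329 of 4 or more blocks 0.07, 0.20 and 0.20. With YTHDF1, 27.2%, 23.7% and 23.4% of the 3 classes were enriched and 18.5%, 14.9% and 19.8% depleted. Of all tested genes in the same classes, 18.3%, 26.1% and 29.6% were enriched and 39.0%, 26.5% and 22.4% depleted. Enriched lncRNA genes held a median of 2.91, 3.07 and 3.27 GGAC words per kilobase in the YTHDF1, YTHDF2 and YTHDF3 RIP, and depleted ones 3.02, 3.02 and 3.22. For protein-coding genes the medians were 3.48, 3.88 and 3.63 in enriched genes and 3.29, 3.08 and 3.33 in depleted ones.

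By position in the genome, each of the 809 was put in the first class that it met. Of them, 169 shared an exon with another gene on the same strand. Another 55 lay inside another gene on the same strand without sharing an exon. Of the rest, 346 had an exon opposite another gene's exon and 239 did none of these. Genes that share an exon, such as Gm12940, can also have an exon opposite another gene's exon. The 55 genes inside another gene had a median log2 fold change of 0.92 in the YTHDF2 RIP, where 12 (21.8%) were enriched and none was depleted. Among all lncRNA genes 11.5% and 7.54% were called in those directions, and among all tested genes 15.7% and 19.0%. With YTHDF1 their median was −0.33, with 9 (16.4%) enriched and 13 (23.6%) depleted, against 27.2% and 25.8% of all tested genes. In the YTHDF3 RIP it was 0.51, with 5 enriched and 1 depleted, against 16.4% and 23.0% of all tested genes. The other 3 classes had medians of 0.02 to 0.24 in the YTHDF2 RIP. The 346 genes classed as opposite an exon had a median of 0.30 in the YTHDF1 RIP, where 87 (25.1%) were enriched and 41 (11.8%) depleted. Called in those directions were 24.2% and 17.6% of all lncRNA genes and 27.2% and 25.8% of all tested genes. A gene that lies inside another on the same strand cannot be told apart by strand from unspliced RNA of its host.

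**Figure D3:**
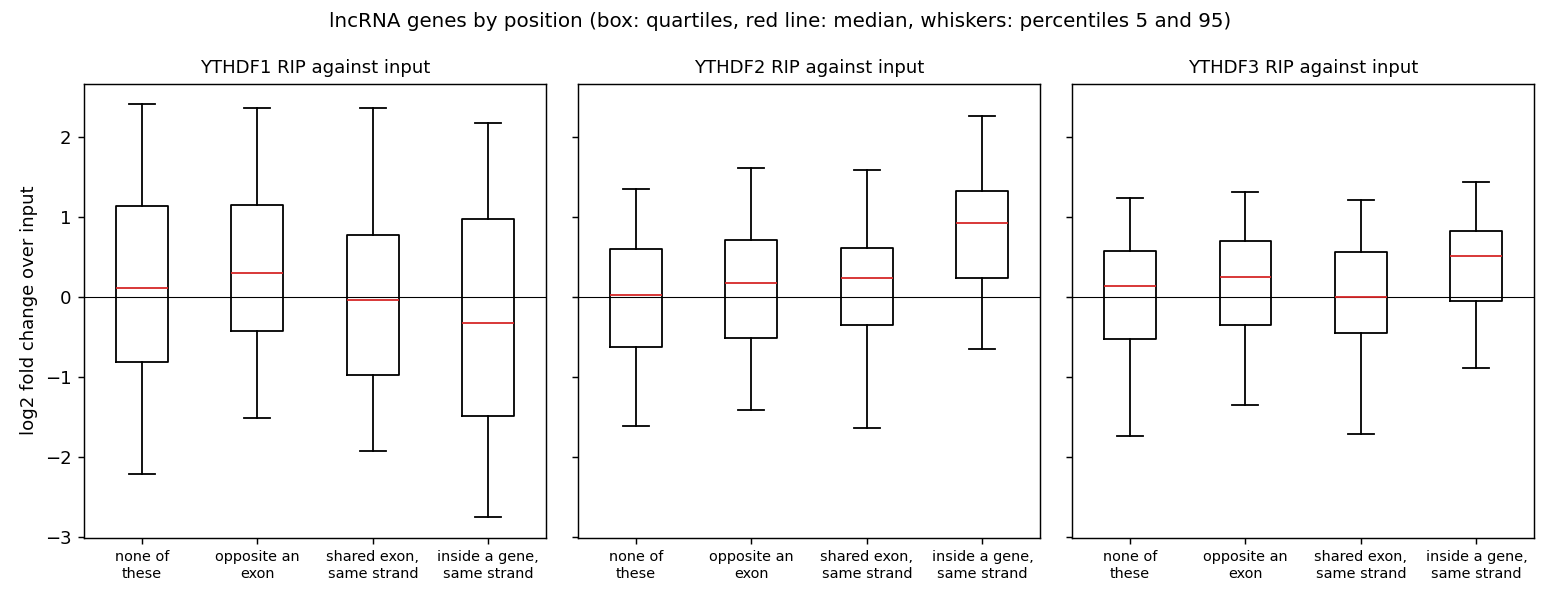
Boxes give the quartiles, red lines the median and whiskers the 5th and 95th percentiles of the log2 fold change over input for lncRNA genes in 4 classes of position. The class inside another gene on the same strand had the highest median in the YTHDF2 RIP (0.92) and the lowest in the YTHDF1 RIP (−0.33).

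Of those 55 genes, 44 lay inside a tested protein-coding host, with 39 hosts and 46 pairs in all. In the YTHDF2 RIP the lncRNA gene lay above its host in 36 of the 46 pairs, with medians of 0.91 and 0.19. With YTHDF1 it lay above in 19 of 46, with medians of −0.24 and 0.60. These medians are over pairs for the lncRNA genes and over the 39 hosts for the hosts. Several pairs share the host Gm20388, and 3222401L13Rik recurs against several hosts, so these loci weigh on the counts repeatedly. Peg13, a paternally expressed imprinted RNA of the brain, lies inside Trappc9 on chromosome 15 (72805600 to 72810324, minus strand, 1 block of 4725 bases). Its level was 63.9, 51.6 and 73.6 CPM in the input, 422, 279 and 406 with YTHDF1, 332, 574 and 398 with YTHDF2 and 170, 171 and 208 with YTHDF3. Every RIP library was above every input library. The log2 fold changes were 2.55 ± 0.26 (SE, adjusted p = 2.1e-05), 2.79 ± 0.26 (0.00018) and 1.54 ± 0.25 (0.0006), and those of Trappc9 were 0.92, 0.27 and 0.19. Gm50107, inside Pknox1, and Gm38190, inside Tiprl, rose by 2.41 and 1.58 in the YTHDF2 RIP and fell by 2.98 and 2.72 in the YTHDF1 RIP. They were named after their values were seen, from the 20 genes of this class that were lower with YTHDF1 than with YTHDF2 in the direct test. In that test 10.3% of all lncRNA genes and 6.10% of all tested genes were lower.

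How closely the change of a partner gene went with that of the lncRNA gene differed by the kind of pair, and was least for divergent starts. Over 144 pairs of an lncRNA gene and a protein-coding gene with exons in common on the same strand, Spearman's rho between their log2 fold changes was 0.73, 0.68 and 0.73 in the YTHDF1, YTHDF2 and YTHDF3 RIP. These pairs share reads by the way reads were counted. They hold only 97 lncRNA genes, and Gm38182 alone recurs against many protocadherin gamma genes of nearly equal change, so that locus weighs on the rho repeatedly. Over 364 pairs with exons on opposite strands, which were counted by strand, rho was 0.36, 0.16 and 0.21. Reads assigned to the wrong strand were not measured. Over 273 pairs that start within 1000 bases of each other in opposite directions rho was 0.11, 0.07 and 0.04. The 270 lncRNA genes of those divergent pairs had a median of −0.11, −0.13 and −0.05, and their 272 protein-coding partners 0.45, 0.19 and 0.34. In the YTHDF1 RIP, 40 of the 270 were enriched and 59 depleted, and 113 of the 272 partners were enriched and 57 depleted. Of all lncRNA genes 24.2% and 17.6% were called in those directions, and of all tested genes 27.2% and 25.8%. Both genes were enriched in 23 divergent pairs and both depleted in 18. The lncRNA gene was depleted and its partner enriched in 23 pairs, and the reverse held in 4.

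**Figure D4:**
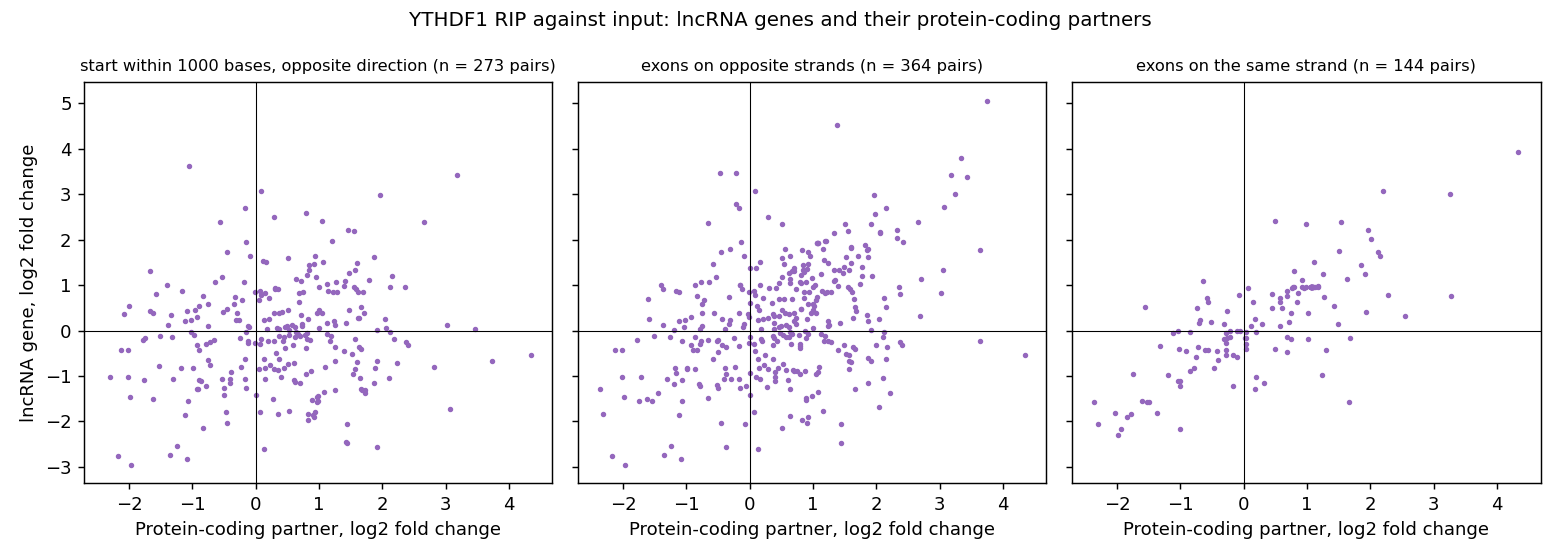
Each point is a pair of an lncRNA gene (vertical axis) and a protein-coding gene (horizontal axis), as log2 fold changes of the YTHDF1 RIP over input, for divergent starts, exons on opposite strands and exons on the same strand. The pairs sharing a strand followed the diagonal (rho of 0.73), and the divergent pairs were spread widely around it (rho of 0.11). Many points of the pairs sharing a strand are of Gm38182 alone, paired with protocadherin gamma genes.

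Pantr1, which starts beside the transcription factor gene Pou3f3 and is read in the other direction (chromosome 1, 42590782 to 42694842, minus strand), was such a pair. Pantr1 was at 7.61, 19.3 and 19.6 CPM in the input, 4.61, 6.21 and 3.26 with YTHDF1, 5.98, 4.33 and 4.80 with YTHDF2 and 2.02, 2.81 and 2.68 with YTHDF3. All 9 RIP libraries lay below all input libraries, of which input 1 was the lowest. It fell by 1.73 ± 0.36 (adjusted p = 0.0021), 1.62 ± 0.37 (0.0061) and 2.62 ± 0.37 (0.00025) on the log2 scale, while Pou3f3 rose by 3.07, 2.18 and 1.49. A330008L17Rik, divergent from the cadherin gene Cdh8, fell by 1.47 in the YTHDF1 RIP (adjusted p = 0.012) and by 2.02 in the YTHDF2 RIP (0.0069). Cdh8 rose by 0.97 in the YTHDF1 RIP (0.0045) and had −0.32 in the YTHDF2 RIP (0.31). With the block in these groups alone the change of A330008L17Rik in the YTHDF1 RIP was −1.53 with an adjusted p of 0.070. 1110002L01Rik, divergent from Asxl2, fell by 0.96 (0.0091) and 1.64 (0.0012) in the YTHDF1 and YTHDF2 RIP.

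Among the abundant cytoplasmic RNAs, Norad (chromosome 2, 156388065 to 156392979, minus strand, 1 block of 4915 bases) was at 909, 692 and 564 CPM in the input. It reached 1040, 716 and 1285 CPM with YTHDF1, 1437, 1049 and 1254 with YTHDF2 and 2767, 2525 and 1884 with YTHDF3. The YTHDF3 RIP libraries were above all 9 others, and the YTHDF1 RIP libraries overlapped the input. The log2 fold change was 1.73 ± 0.28 in the YTHDF3 RIP (adjusted p = 0.00059), 0.79 ± 0.27 in the YTHDF2 RIP (0.044) and 0.49 ± 0.27 in the YTHDF1 RIP (0.15). The call with YTHDF2 was lost with the block in these groups alone (0.057), with scaling on protein-coding genes (0.073), with no filter (0.21) and without input 2 or 3, YTHDF2 RIP 1 or 3 or YTHDF3 RIP 1 or 2 (0.051 to 0.17). Gm7292 (chromosome 6, 117716342 to 117718868, plus strand) rose by 1.84 ± 0.30 in the YTHDF3 RIP (0.00059). It is a near copy of the first part of Norad, with 2516 of 2525 aligned bases identical (99.6%), shown by 120 bases of each with capitals at the 2 differences (T38C and A49G, Norad's base first, counted from the first base shown).
Norad, chr2:156391401-156391520, minus strand: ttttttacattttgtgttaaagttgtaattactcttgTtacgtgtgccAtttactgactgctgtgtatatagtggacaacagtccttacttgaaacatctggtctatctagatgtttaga
Gm7292, chr6:117717774-117717893, plus strand: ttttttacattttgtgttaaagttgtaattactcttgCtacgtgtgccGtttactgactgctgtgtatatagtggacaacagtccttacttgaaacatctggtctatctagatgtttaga
Its counts were 0.32 to 0.41 of those of Norad in each of the 12 libraries, and reads that match both genes cannot be assigned to one.

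Oip5os1, also called Cyrano, pairs with a microRNA and leads to its decay (chromosome 2, 119594297 to 119607502, plus strand). It was at 500, 365 and 330 CPM in the input, 337, 638 and 805 with YTHDF1, 231, 176 and 162 with YTHDF2 and 1062, 752 and 572 with YTHDF3. The YTHDF2 RIP libraries lay below and the YTHDF3 RIP libraries above every input library. The log2 fold changes were −1.07 ± 0.33 (adjusted p = 0.028) and 1.00 ± 0.33 (0.033), and the direct difference between both RIPs was −2.07 ± 0.34 (0.0078). For the YTHDF3 RIP the replicate block over all libraries gave an adjusted p of 0.0504. The first call was lost without input 1 or 2 or YTHDF2 RIP 2 or 3 (0.051 to 0.096) and the second without input 2 or 3 or YTHDF3 RIP 1 or 2 (0.055 to 0.13). In the YTHDF1 RIP the change was 0.57 ± 0.33 (0.16). 5330416C01Rik rose in all 3 RIPs, by 2.31, 1.69 and 1.37, with adjusted p of 0.00056, 0.0072 and 0.015. Without input 2 the last of these was lost (0.063).

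**Figure D5:**
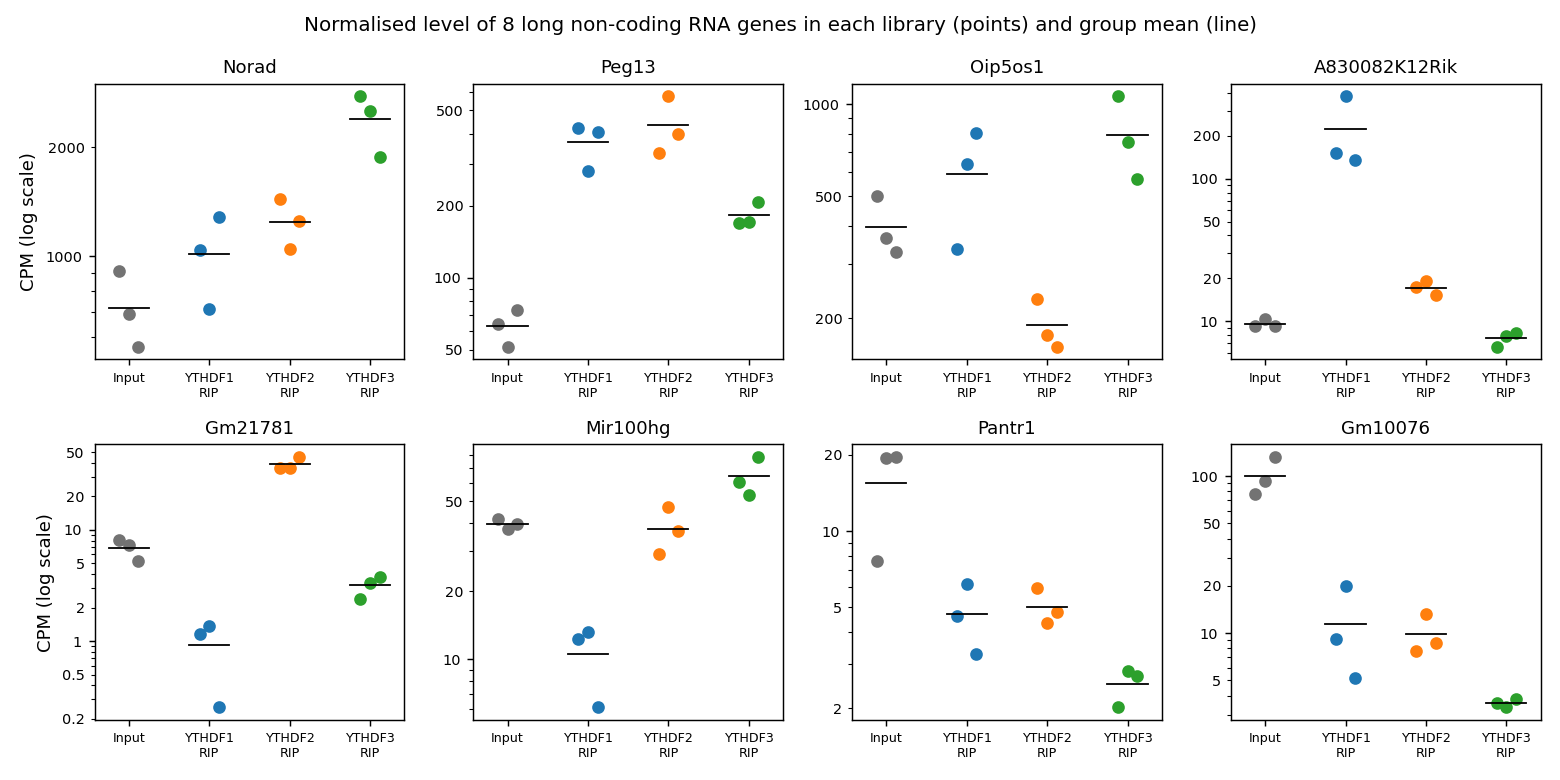
Points give the CPM of each library on a log axis and lines the group mean for 8 lncRNA genes in the input and the 3 RIPs. Norad was highest in the YTHDF3 RIP (1884 to 2767 CPM), A830082K12Rik with YTHDF1 (135 to 380) and Gm21781 with YTHDF2 (35.8 to 45.3).

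A830082K12Rik (chromosome 13, 78198017 to 78279391, plus strand) has exons opposite Nr2f1, a nuclear receptor gene of the developing cortex. It was at 9.29, 10.4 and 9.21 CPM in the input and 152, 380 and 135 with YTHDF1, a log2 fold change of 4.53 ± 0.38 (adjusted p = 6.6e-06). In the YTHDF2 RIP it was at 17.4, 19.1 and 15.2 and in the YTHDF3 RIP at 6.65, 7.88 and 8.23, where the changes of 0.84 (0.077) and −0.34 (0.45) did not pass the test. Nr2f1 rose by 1.38, 1.00 and 1.33. C230034O21Rik, opposite the protocadherin gene Fat4, rose by 2.71 ± 0.25 (1.1e-05), 0.81 ± 0.24 (0.022) and 1.19 ± 0.24 (0.0022), and Fat4 by 3.07, 1.80 and 1.46. Dlx6os1, made beside the Dlx genes of inhibitory interneurons, was at 36.9, 23.8 and 12.3 CPM in the input and 64.7, 264 and 126 with YTHDF1 (2.64 ± 0.52, adjusted p = 0.0014), with −0.98 (0.16) and −0.48 (0.48) in the other RIPs. Gm49064 rose by 4.07 ± 0.32 (5.2e-06) from 0.913 to 1.71 CPM in the input to 15.2 to 31.2. Gm49749, which lies within an exon of Pcnx and has all its words in that gene, rose by 3.07, and Pcnx by 2.20. Gm47033 had the largest change of these (5.55 ± 0.84, adjusted p = 0.00024), but its YTHDF1 RIP libraries read 12.4, 201 and 53.7 CPM against 1.54 to 2.14 in the input. The mean count that a gene needed to be named includes the RIP libraries, so its high YTHDF1 RIP reads also served to select it.

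MicroRNA host transcripts hold small RNAs in their introns or exons. None of the 8 genes with such a name was enriched in the YTHDF1 RIP, where 4 were depleted (median −0.97). In those directions 24.2% and 17.6% of all lncRNA genes and 27.2% and 25.8% of all tested genes were called. Mir100hg (chromosome 9, 41327077 to 41716994, plus strand) was at 41.6, 37.7 and 39.7 CPM in the input, 12.3, 13.2 and 6.13 with YTHDF1, 29.1, 47.0 and 37.0 with YTHDF2 and 61.0, 53.4 and 78.5 with YTHDF3. The YTHDF1 RIP libraries lay below and the YTHDF3 RIP libraries above all input libraries. It fell by 1.92 ± 0.29 in the YTHDF1 RIP (adjusted p = 0.00024), with −0.07 (0.86) and 0.70 (0.066) in the others. In the YTHDF3 RIP with the block in these groups alone the change was 0.73 with an adjusted p of 2.8e-06. Mir124a-1hg, a host of the neuronal microRNA miR-124, fell by 1.52 ± 0.47 in the YTHDF1 RIP (0.018) and had 1.01 ± 0.47 in the YTHDF2 RIP (0.11, and 0.021 with that block). Mir124-2hg fell by 1.13 (0.027, and 0.11 with that block). The call of Mir124a-1hg was lost without input 1 (0.051), and that of Mir124-2hg without input 1, input 2 or YTHDF1 RIP 1 (0.053 to 0.092). C78859, whose exon holds Mir138-2, fell by 2.07 ± 0.43 in the YTHDF1 RIP (0.0019) and rose in the YTHDF3 RIP (0.047), where its 18.1 to 40.8 CPM lay above all input libraries. Lncppara, which holds Mirlet7b and Mirlet7c-2, rose by 1.92 ± 0.62 in the YTHDF2 RIP (0.032, and 0.054 with the block over all libraries). That call was also lost without any 1 of the 3 input libraries or YTHDF2 RIP 1 or 2 (0.064 to 0.11). Mir9-3hg rose by 0.85 there (0.039), a call lost without any 1 of the 3 input libraries, YTHDF2 RIP 2 or 3 or YTHDF3 RIP 2 (0.053 to 0.12).

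Rmrp was at 440, 587 and 485 CPM in the input, 145, 41.2 and 9.61 with YTHDF1, 109, 128 and 129 with YTHDF2 and 5.91, 3.29 and 3.37 with YTHDF3. It fell by 2.96 ± 0.70 (adjusted p = 0.0042), 2.05 ± 0.68 (0.035) and 6.91 ± 0.85 (0.00011), and its 281 bases share 271 with a ribozyme gene of the same name. The call in the YTHDF2 RIP was lost without any 1 of the 3 input and 3 YTHDF2 RIP libraries (0.057 to 0.11). Gm10076, whose 384 bases hold 69.9% of their 50-base words in common with Rpl41, a ribosomal protein gene, fell from 77.4, 92.5 and 133 CPM in the input to 3.58, 3.37 and 3.80 with YTHDF3. Its changes were −3.14, −3.36 and −4.81, and those of Rpl41 were −3.10, −3.05 and −4.22. Gm28037, which shares exons with the ribosomal protein gene Rpl24, fell by 1.58, 1.75 and 2.14, and Rpl24 by 2.37, 2.10 and 2.83. Gm45883 fell by 1.81, 1.65 and 1.79 and shares exons with Mmd (−1.37, −1.54 and −1.76). Gm42743, which shares an exon with the histone gene H2bc18, fell by 4.23 ± 0.73 in the YTHDF3 RIP (0.00086), as H2bc18 did.

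The 3 RIPs were also compared with each other, at a fold of at least 2. Between the YTHDF1 and YTHDF2 RIP, 106 lncRNA genes (13.1%) were higher in the YTHDF1 RIP and 83 (10.3%) lower, against 11.4% and 6.10% of all tested genes. Scaling by library size alone gave 58 and 154, with 6.24% and 16.3% of all tested genes called. Scaling on protein-coding genes gave 83 and 100, with 9.3% and 8.13% of all tested genes. Gm21781 (chromosome 10, 4391587 to 4396424, plus strand, 1 block) had the largest difference downwards among the named genes. It was at 8.07, 7.25 and 5.25 CPM in the input, 1.15, 1.36 and 0.254 with YTHDF1, 36.0, 35.8 and 45.3 with YTHDF2 and 2.41, 3.29 and 3.80 with YTHDF3. The 4 groups did not overlap. The direct difference was −5.53 ± 0.49 (adjusted p = 2.8e-05), and over input it fell by 3.03 ± 0.46 in the YTHDF1 RIP and by 1.11 ± 0.40 in the YTHDF3 RIP and rose by 2.50 ± 0.40 in the YTHDF2 RIP. Gm12940, which shares 216 bases of exon with Sfpq, differed by −3.27 ± 0.33 (6e-05). Gm42047, which lies inside Gm20388 and shares 72.9% of its 50-base words with other genes, was at 18.3, 56.7 and 44.8 CPM in the input and 170, 147 and 221 with YTHDF2, a rise of 2.17 ± 0.51 (0.0069). Sfpq rose by 1.57 in the YTHDF2 RIP and had 0.18 (0.66) in the YTHDF1 RIP. AI504432 differed by 3.78 ± 0.49 (0.00024), with 52.5, 110 and 152 CPM in the YTHDF1 RIP and 8.24, 5.82 and 8.72 with YTHDF2, and Gm47033 by 6.84 ± 0.94 (0.00034).

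Between the YTHDF1 and YTHDF3 RIP, 88 lncRNA genes (10.9%) were higher in the YTHDF1 RIP and 64 (7.91%) lower, against 10.8% and 3.63% of all tested genes. With the block in these groups alone 12 and 6 were called, with 1.85% and 0.60% of all tested genes. Library size alone gave 45 and 203, with 4.48% and 20.1% of all tested genes. Scaling on protein-coding genes gave 66 and 89, with 7.98% and 5.68% of all tested genes. A830082K12Rik differed by 4.87 ± 0.38 (adjusted p = 2.4e-05), Gm47033 by 5.69 ± 0.83 (0.00078), C78859 by −3.17 ± 0.44 (0.00059) and Mir100hg by −2.62 ± 0.30 (0.00018), with no overlap between libraries. Between the YTHDF2 and YTHDF3 RIP, 28 (3.46%) were higher in the YTHDF2 RIP and 11 (1.36%) lower, against 3.95% and 1.16% of all tested genes. The total of 39 became 24 with the block over all libraries and 16 with the block in these groups alone. It was 21, 18 and 23 without YTHDF2 RIP 1, 2 or 3 and 20, 12 and 20 without YTHDF3 RIP 1, 2 or 3. Library size alone gave 18 and 33, with 2.81% and 4.19% of all tested genes called. Gm15564 was at 218, 214 and 339 CPM in the YTHDF2 RIP and 4.55, 1.33 and 3.11 with YTHDF3, with 73.7, 78.0 and 52.4 in the input. The difference was 6.42 ± 0.81 (adjusted p = 0.0024), beside 4.86 ± 0.77 for Rmrp (0.0068). AI504432 differed by −1.64 ± 0.46 (0.0495). Its call was lost with both blocks (0.086 and 0.060) and without any 1 of the 6 libraries (0.055 to 0.16).

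Of a list of 23 known lncRNAs, 2 were enriched and 7 depleted in the YTHDF1 RIP, where 27.2% and 25.8% of all tested genes were called. The median log2 fold change of the list was −0.43, against 0.02 over all tested genes. In the YTHDF2 RIP, 4 were enriched and 3 depleted (median 0.0083), with 15.7% and 19.0% of all tested genes called. In the YTHDF3 RIP, 3 were enriched and 2 depleted (median −0.07), with 16.4% and 23.0% called. Dleu2, which hosts a microRNA pair lost in leukaemia, fell by 1.13 in the YTHDF1 RIP (adjusted p = 0.033, and 0.078 with the block in these groups alone), and Epb41l4aos fell by 1.48 (0.0077, and 0.069 with that block) and by 1.28 in the YTHDF3 RIP (0.016). C130071C03Rik, whose exon holds Mir9-2, rose by 0.43 in the YTHDF2 RIP (0.042), a call lost with either block (0.064 and 0.13) and without any 1 of 8 libraries, YTHDF2 RIP 3 being the exception among input, YTHDF2 RIP and YTHDF3 RIP libraries (0.056 to 0.15). The call of Dleu2 was lost without input 2 or YTHDF1 RIP 3 (0.13 and 0.10), and that of Epb41l4aos in the YTHDF3 RIP without input 3 or YTHDF3 RIP 2 (0.053 and 0.064). Against input no test was passed by the snoRNA hosts Zfas1 (−1.04 and −0.50 in the YTHDF1 and YTHDF2 RIP) and Dancr (0.42, 0.54 and −0.73), Sox2ot, which spans the Sox2 gene (0.14, −1.05 and −0.78), Rmst, an RNA of neuronal differentiation (−1.21, 0.01 and −0.07), Pvt1, a neighbour of Myc (−0.55, −0.08 and −0.42), the p53-induced Lncpint (−0.19, 1.60 and 0.52), the imprinted Airn (0.02, −0.55 and −0.87), Mir22hg (−0.43, 0.69 and 0.17), Mir99ahg (−0.04, 0.66 and −0.43) and Mir17hg, which had no count in 2 of 3 input libraries. Lncpint passed in the YTHDF2 RIP with the block over all libraries (0.044). With the block in the compared groups alone, Sox2ot passed in the YTHDF2 and YTHDF3 RIP (adjusted p = 0.031 and 4.9e-06), as did Dleu2 (9.6e-05), Airn (0.0046), Lncpint (0.027), Mir9-3hg (0.0011), Mir17hg (0.0055), Dancr (0.049) and Dlx6os1 (0.0067) in the YTHDF3 RIP.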

How the data were processed

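RNA was sequenced from YTHDF1, YTHDF2 and YTHDF3 immunoprecipitates and input of cultured hippocampal neurons. The authors extracted UMIs and removed duplicates with UMI-tools 1.1.1, trimmed with cutadapt 3.4, aligned to mm10 with STAR 2.7.7a and deposited the counts of featureCounts 2.0.1, not normalised, for each gene (stranded, over exons of Ensembl release 97, overlapping genes and multi-mapping reads each counted). They also deposited DESeq2 tables of each RIP against input, with fold changes and p-values that were not used. Only the gene identifiers, names and biotypes of the YTHDF1 table were read. It listed 16716 genes, each with a mean of at least 10.

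Counts were tested with edgeR 4.0.16 (R 4.3.3): quasi-likelihood F test, 1 model of the 4 groups over 12 libraries, genes with a mean normalised count of at least 10, TMM scaling, Benjamini-Hochberg adjustment. Adjusted p-values in the report are from it. CPM values use the TMM library sizes, except those of cell type markers, which use total counts. Standard errors are the log2 fold change divided by the root of F. DESeq2 1.42.0 served as an alternative. The model was tested on simulated data. Libraries of 1 group were taken as separate replicates. P-values measure the spread between these libraries. Depth limits precision for genes of low level: of the lncRNA genes enriched in the YTHDF1, YTHDF2 and YTHDF3 RIP, 42, 14 and 19 had at most 10 counts in every input library.

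The study's methods describe 1 lysate split over the RIPs for each replicate, but do not say that library numbers match across groups. Deviations from group means correlated at 0.83, 0.53 and 0.80 between input and YTHDF3 RIP libraries of the same number, and at −0.35 to 0.54 in the other pairs of groups. For YTHDF1 RIP libraries 1, 2 and 3 the best correlated input libraries were 2, 3 and 1, and likewise for YTHDF2. Whether the numbers match lysates in those groups was not tested. The alternatives were other scalings and filters, the replicate block, the compared groups alone, DESeq2 and leaving out each library.

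Gene models, positions and transcripts came from GENCODE M21 (GRCm38, Ensembl release 96), the build of the counts. Merged exon lengths equalled the deposited length for all 55573 genes. A 50-base word counts as shared where another gene's transcript holds it.

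Genes were named by rule: with a mean of at least 100 and no overlap between replicates, the 5 highest and 5 lowest called changes per RIP against input and the 2 largest each way per pair of RIPs, the 5 highest input levels per kilobase, and the listed known lncRNAs. The mean was taken over all 12 libraries, so a gene could reach it through the RIP in which it was high. Genes named outside this rule are marked or are partners. The members and lists were chosen with earlier results of these data known.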

Additional observations from a re-analysis of the deposited data

Results flagged for a closer look

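Of the lncRNA genes with a mean of at least 100, 12 differences between RIPs were set aside because the direct test found the change over input to differ between antibodies (edgeR's quasi-likelihood test, log2 scale). Between the YTHDF1 and YTHDF2 RIP these were Gm47033 (6.84), AI504432 (3.78), Gm21781 (−5.53) and Gm12940 (−3.27). Between the YTHDF1 and YTHDF3 RIP they were Gm47033 (5.69), A830082K12Rik (4.87), C78859 (−3.17) and Mir100hg (−2.62). Between the YTHDF2 and YTHDF3 RIP they were Gm15564 (6.42), Rmrp (4.86), Oip5os1 (−2.07) and AI504432 (−1.64). They are the 2 largest called differences in each direction whose libraries do not overlap, out of 41, 39 and 15 that met this rule in the 3 comparisons. The mean of at least 100 includes the RIP libraries, so a gene such as Gm47033 could pass it through the group in which it was high. Of the 12, 11 kept their call in all 21 alternatives. They were chosen as the largest in these same libraries, so this says little about the calls of other lncRNA genes. The difference of AI504432 between the YTHDF2 and YTHDF3 RIP kept it in 11, and was lost without any 1 of the 6 compared libraries, without input 1 or 2, and with either replicate block.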

How the results depend on the processing

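Counts of called lncRNA genes are given for enriched and depleted genes of the YTHDF1, YTHDF2 and YTHDF3 RIP and for the differences between YTHDF1 and YTHDF2, YTHDF1 and YTHDF3, and YTHDF2 and YTHDF3 RIP. The reported counts were 196, 142, 93, 61, 83, 83, 189, 152 and 39. A minimum mean of 50 tested fewer genes and gave 79, 53, 59, 21, 49, 26, 83, 70 and 24. Leaving out 1 library gave ranges of 139 to 193, 102 to 160, 50 to 107, 37 to 67, 44 to 109, 37 to 86, 133 to 197, 111 to 169 and 12 to 56. Library size alone gave 121 enriched in the YTHDF1 RIP, 163 enriched and 44 depleted in the YTHDF3 RIP and 248 differences between them. The compared groups alone gave 130 enriched in the YTHDF1 RIP, and 123 and 99 differences between the YTHDF1 RIP and the YTHDF2 and YTHDF3 RIP. The replicate block in those groups alone gave 87 and 69 for the YTHDF1 RIP, 35 depleted for the YTHDF2 RIP, 260 and 152 for the YTHDF3 RIP, and 18 and 16 differences of the YTHDF1 and YTHDF2 RIP from the YTHDF3 RIP. The replicate block over all libraries gave 24 for the last of these, and no filter 61, with 47 depleted in the YTHDF3 RIP. Calls over all tested genes moved with the settings too. With the replicate block in YTHDF3 RIP and input alone, 36.3% and 32.2% of all tested genes were enriched and depleted, against 16.4% and 23.0% as reported. The cause was not tested. Size factors of DESeq2, DESeq2 itself and scaling on protein-coding genes kept all 9 counts within 1.5 times. The median of lncRNA genes less that of all genes was 0.12 to 0.13, 0.16 and 0.13 under the scalings tried, 0.18, 0.25 and 0.29 with a minimum mean of 50 and −0.26, 0.08 and 0.31 with no filter. Of the 106 single-gene changes refitted, which are those the naming rule chose a gene for and those of the 23 known lncRNAs against input, none that was called turned its direction. Changes of a named gene in other comparisons were not refitted. Depth limits the 421 genes with a mean under 30.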
